A study of Mus musculus with 8 samples.

Results

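Integrins and laminins were followed in RNA from hearts of C57BL/6 mouse embryos at embryonic day 9.5. The genes were taken by their symbols alone, as every integrin alpha subunit, integrin beta subunit and laminin chain whose name has the standard form, and 37 of the 49315 genes in the count table matched. They comprised 18 integrin alpha subunits, 8 integrin beta subunits, 5 laminin alpha chains, 3 laminin beta chains and 3 laminin gamma chains. The study compared 4 male with 4 female libraries of untreated hearts of the same strain and age, the sex of each embryo having been read from the Sry gene, the Y-linked testis-determining gene, in its other tissues. All groups shared the C57BL/6 background, and no transgene or mutation was named. Pooling of hearts and shared litters are not addressed by the labels, and p-values here therefore speak of library-to-library spread only.

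Integrins are cell surface receptors made of an alpha and a beta subunit, and each pairing sets which matrix proteins the receptor holds. Laminins are large cross-shaped proteins of an alpha, a beta and a gamma chain that assemble into the sheet-like basement membrane, the layer of matrix that underlies epithelia and endothelia and surrounds muscle cells. In the early heart tube, basement membrane lies around the cardiomyocytes and beneath the endocardium, and fibronectin and laminin are the main ligands that integrins meet there. Integrins signal through cytoplasmic adaptors such as talin and kindlin, which link the beta tail to actin.

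Total counts ranged from 20105913 to 51134291 per library, and Itgb1 rested on 7351 to 27767 reads per library, Lama5 on 1046 to 2887 and Itga2b on 496 to 1145. All 6 cardiomyocyte markers and all 6 endothelial and endocardial markers examined exceeded 1 CPM in every library. A CPM is a gene's reads relative to the counted reads of the library, scaled as given below. Male replicate 2 stood apart on the first principal component, which held 53.4% of the variance, at 73.5 against -46.7 to 22.7 for the other 7 libraries. In the same library, genes of at most 200 bases took 20.3% of the length-scaled signal, against 2.81% to 8.93% elsewhere. Levels per length (TPM, from reads per deposited gene length) were therefore used only to order genes, and CPM scaled by trimmed means (TMM) was used to compare libraries. The libraries also differed in how expression varied with gene length. For each library, the log2 CPM of every gene minus its mean over all libraries was regressed on log2 length. These relative slopes were 0.034, -0.105, 0.056 and -0.016 in Male replicates 1 to 4, against -0.032, -0.0004, -0.038 and 0.101 in Female replicates 1 to 4. A negative slope is thus one below the average library, and does not mean that expression fell with length.

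Among the integrin alpha subunits, the fibronectin receptor subunit Itga5 and the laminin receptor subunit Itga6 were the most abundant in every library. Itga5 had a mean level of 74.1 ± 15 TPM and Itga6 one of 67.8 ± 17.4 TPM (SD, n = 8 libraries). Per library, Itga5 stood at 91.1, 50.04, 84.6 and 80.0 TPM in Male replicates 1 to 4, and at 63.4, 71.6, 61.1 and 90.9 TPM in Female replicates 1 to 4. Itga6 stood at 82.6, 34.0, 76.0 and 71.8 TPM in Male replicates 1 to 4, and at 62.9, 72.7, 54.0 and 88.6 TPM in Female replicates 1 to 4. Male replicate 2 was the lowest library for both genes on this scale, whereas by CPM Itga5 was lower in 3 female libraries than in Male replicate 2. Itga5 exceeded Itga6 in 7 of 8 libraries, but their ranges overlapped and their means differed 1.09-fold. Itga5 made up 37.8% and Itga6 34.1% of all integrin alpha RNA per length.

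The next alpha subunit, Itga9, which binds tenascin C and other ligands with Itgb1, was 5.07-fold below Itga6, and the ranges of these neighbours did not overlap. Itga9 averaged 13.4 ± 2.60 TPM, followed by Itga3, a laminin receptor subunit, at 9.84 ± 1.90 TPM. The platelet fibrinogen receptor subunit Itga2b averaged 9.81 ± 0.574 TPM and Itgav, the alpha partner of several beta subunits in receptors for vitronectin and latent TGF-beta, averaged 8.90 ± 1.65 TPM. Itga3, Itga2b and Itgav were not separated: Itga3 exceeded Itga2b in 4 of 8 libraries, and Itga2b exceeded Itgav in 6 of 8. Below them came the collagen receptor subunit Itga1 at 4.67 TPM, the muscle laminin receptor subunit Itga7 at 2.85 TPM, Itga4, which binds fibronectin and Vcam1, at 1.88 TPM, and the collagen receptor subunit Itga10 at 1.81 TPM. Itga4 and Itga10 were likewise not separated, with Itga4 the higher in 4 of 8 libraries. Of the reads of Itga10, those from 33.5% of its exonic bases can also belong to the overlapping gene Gm42957 on the same strand, so its level is uncertain.

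**Figure D1:**
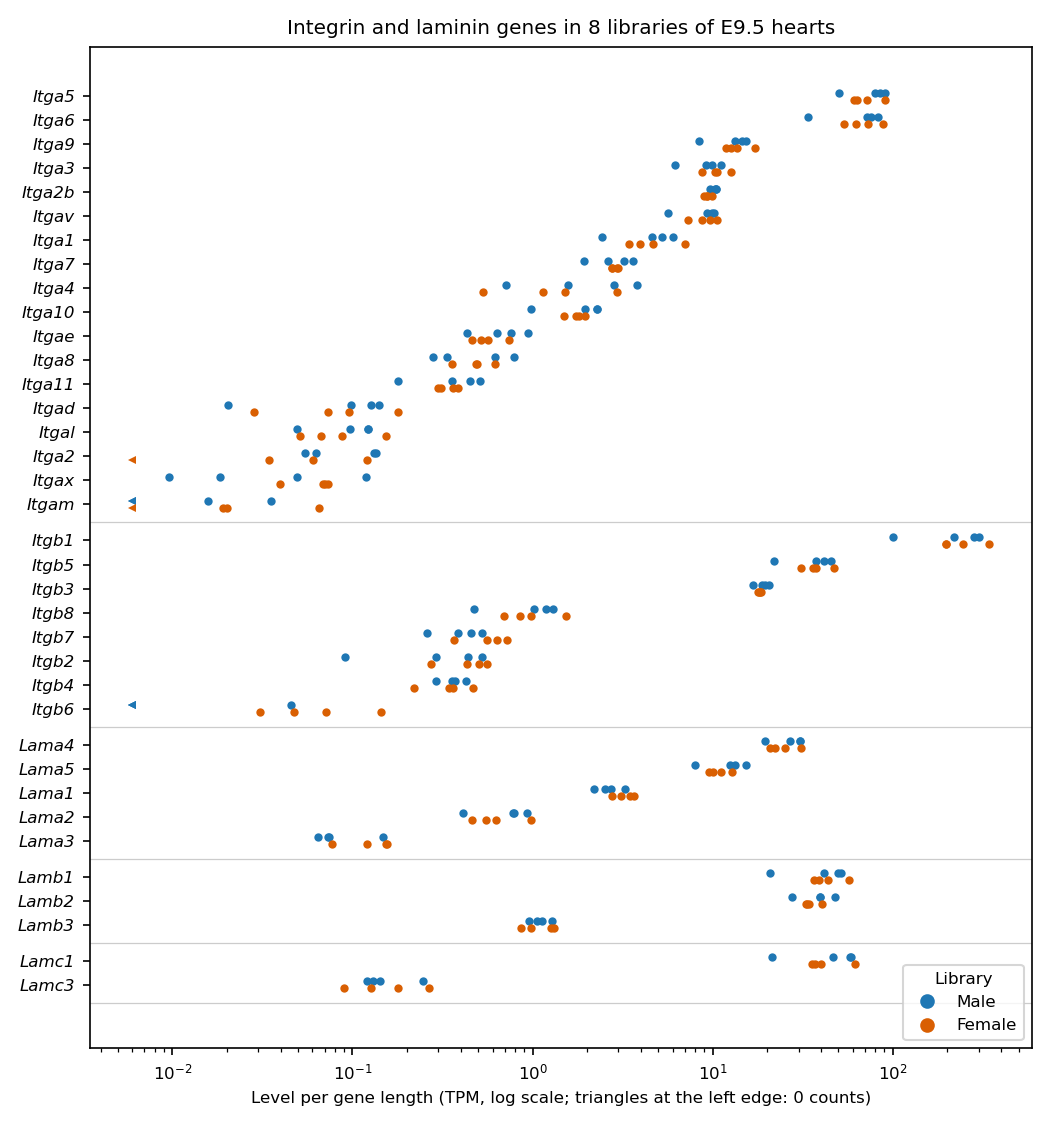
Levels per gene length (TPM, log scale) of 36 integrin and laminin genes, grouped by class and ordered by mean within each class; each point is 1 library, Male above Female, and triangles at the left edge mark 0 counts. Itga5 and Itga6 lie far above the other alpha subunits, and Itgb1, Lama4 and Lamc1 lead their classes in all 8 libraries.

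Itgb1, the beta subunit shared by most matrix receptors, was the most abundant of all 37 genes and supplied 79.3% of the integrin beta RNA per length. Itgb1 (chromosome 8, 128685654 to 128733200, plus strand, GRCm38) had 283, 100, 301 and 219 TPM in Male replicates 1 to 4, and 199, 247, 197 and 343 TPM in Female replicates 1 to 4. Its lowest library, Male replicate 2, still lay above every library of every other beta subunit. With genes of at most 200 bases left out of the scaling, Itgb1 ranged from 126 to 353 TPM. Itgb5, a vitronectin receptor subunit that pairs with Itgav, followed at 37.3 ± 8.07 TPM and 13.0% of the class, and Itgb3, the partner of Itga2b and Itgav, at 18.6 ± 1.14 TPM and 6.87%. The ranges of Itgb1, Itgb5 and Itgb3 did not overlap with each other, and Itgb3 lay 18.5-fold above the next subunit, Itgb8, an activator of latent TGF-beta at 1.01 TPM. Itgb7, Itgb2 and Itgb4 averaged 0.488, 0.389 and 0.355 TPM and were not separated by their ranges.

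Laminin RNA was carried by a few chains. Lama4, the chain typical of vessel and muscle basement membranes, averaged 25.9 ± 4.71 TPM and supplied 62.7% of the laminin alpha RNA per length. Lama5, a chain of many mature basement membranes, averaged 11.6 ± 2.37 TPM and supplied 28.0%. Lama1, the chain of the earliest embryonic basement membranes, averaged 2.96 ± 0.498 TPM, Lama2, a chain of muscle basement membrane, 0.693 ± 0.212 TPM, and Lama3, an epithelial chain, 0.108 ± 0.040 TPM. Neighbours in this order did not overlap in range, so the order Lama4, Lama5, Lama1, Lama2, Lama3 held in each of the 8 libraries.

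The beta and gamma chains showed a different division. Lamb1 and Lamb2, the common beta chains, were near each other at 42.4 ± 11.1 and 37.1 ± 6.19 TPM, with Lamb1 the higher in 7 of 8 libraries and 52.0% of the class. Lamb2 was the higher in Male replicate 2, where Lamb1 made up 42.1% of laminin beta RNA. Lamc1, the gamma chain of nearly all laminins, averaged 45.0 ± 14.0 TPM and led the class. Lamb3, a beta chain of epithelial basement membranes, was low at 1.11 ± 0.173 TPM, and Lamc3 stood at 0.163 ± 0.063 TPM.

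Ranked by the less abundant subunit, 24 known integrin dimers were led by Itga5 with Itgb1 at 74.1 TPM and Itga6 with Itgb1 at 67.8 TPM. Itga9 with Itgb1 at 13.4 TPM, Itga3 with Itgb1 at 9.84 TPM and Itga2b with Itgb3 at 9.81 TPM followed. Itgav was the limiting subunit in its dimers with Itgb1, Itgb3 and Itgb5, which therefore shared the value of 8.90 TPM. Of 14 known laminin trimers, those holding Lama4 with Lamc1 and either Lamb1 or Lamb2 led at 25.9 TPM, followed by those with Lama5 at 11.6 TPM and those with Lama1 at 2.96 TPM. In every one of these trimers the alpha chain was the least abundant of the 3. These ranks describe RNA and not assembled protein. The sets of 8 dimers and 5 trimers ranked highest were the same when levels were not divided by length and when any single library was left out. Without division by length, however, the order within the sets changed. Itga6 then averaged 256 CPM and Itga5 139 CPM, and Lamb2, at 96.1 CPM, lay below Lama4, at 133 CPM.

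Subunits of leukocyte receptors were near the limit of detection, and 6 genes had too few reads for the filtered edgeR test. Itgam, Itgax, Itgad and Itgal, the alpha partners of Itgb2 on myeloid cells and lymphocytes, had 10, 30, 50 and 71 reads summed over all 8 libraries. Itga2, a collagen receptor subunit of platelets and epithelia, had 37 reads. A total of 3 reads, the limit that a count of 0 allows, corresponded to 0.0587 to 0.149 CPM by library size alone, depending on the library. This limit covers counting error only. The other CPM values here are TMM scaled, so it is approximate beside them. Itgam had 0 reads in Male replicates 2 and 3 and Female replicate 1, and 68.7% of its exonic bases are shared with the overlapping gene Gm49368, so its few reads are uncertain. Of the exonic bases of Itgad, 19.7% overlap other genes, among them Gm17831 on the same strand and Cox6a2 on the other. The reads of Itgad are therefore uncertain too. The macrophage marker Adgre1 was at 0 to 0.0267 CPM, whereas Csf1r was at 1.22 to 1.94 CPM, and Itgb2 itself was at 0.175 to 0.645 CPM. The 5 macrophage markers examined summed to 5.47 to 5.92 CPM in males and 4.51 to 5.53 CPM in females. The 4 lymphocyte markers summed to 0.306 to 0.670 CPM in males and 0.322 to 0.481 CPM in females, with Il7r at 0 reads in every library.

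Itgb6, an epithelial subunit that pairs with Itgav, also fell below the filter. It had 0, 7, 0 and 0 reads in Male replicates 1 to 4, and 16, 7, 2 and 10 reads in Female replicates 1 to 4. With no filter on low counts the unadjusted p in edgeR was 0.0655, which became an adjusted p of 0.899. In the same libraries the epithelial marker Epcam stood at 1.97, 12.5, 2.03 and 1.601 CPM in Male replicates 1 to 4, and at 18.3, 2.58, 6.44 and 3.16 CPM in Female replicates 1 to 4. The library with most Itgb6 reads, Female replicate 1, was the one with most Epcam, and the sole male library with Itgb6 reads was the male library with most Epcam. The match was partial among the females. Female replicate 4 had Itgb6 at 0.183 CPM with Epcam at 3.16 CPM, whereas Female replicate 3 had Itgb6 at 0.101 CPM with Epcam at 6.44 CPM. Of the 6 foregut and pharyngeal markers, 5 were highest in Female replicate 1, and all 6 were higher in Male replicate 2 than in any other male. The 5 hepatic and yolk sac markers also summed highest there, at 68.5 CPM in Female replicate 1 and 26.6 CPM in Male replicate 2. The part of either kind of tissue in these reads was not tested. Since whole hearts were sampled, a lower value can mean fewer cells of a type or less RNA per cell, and the measurements here cannot tell these apart.

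Members that lie side by side in the genome could differ widely in level. Itga2 and Itga1 are neighbours on chromosome 13, 26.0 kb apart, and Itga1 was 62.4-fold higher per length. Itgam, Itgax and Itgad lie in a row on chromosome 7 with gaps of 11.1 and 3.7 kb, and each had few reads.

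Over the libraries, the Pearson r of log2 CPM with Itgb1 was 0.995 for Lamb1, 0.897 for Itga6, 0.890 for Lamc1 and 0.882 for Itga1. Values this high were common, since 86.4% of all tested genes had a lower r with Itgb1 than Itga1 did. The sequences before the gene starts are shown for Itgb1, Lamb1 and Itga1 only. They come from RefSeq on GRCm38.p6 and run 5′ to 3′ on the strand of the gene up to the base before the deposited gene model, with capitals marking the GC box, the letters GGGCGG or their reverse complement CCGCCC.
Itgb1 chr8:128685404-128685653, plus strand: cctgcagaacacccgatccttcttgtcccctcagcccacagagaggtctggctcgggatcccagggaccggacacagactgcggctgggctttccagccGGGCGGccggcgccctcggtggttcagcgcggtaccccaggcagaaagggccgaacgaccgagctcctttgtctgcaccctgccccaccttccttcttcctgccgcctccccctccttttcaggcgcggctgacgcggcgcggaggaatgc
Lamb1 chr12:31265043-31265233, plus strand: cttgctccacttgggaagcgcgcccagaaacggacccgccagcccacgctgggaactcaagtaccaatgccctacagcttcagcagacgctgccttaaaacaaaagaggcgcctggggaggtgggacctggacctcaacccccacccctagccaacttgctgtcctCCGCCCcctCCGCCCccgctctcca
Itga1 chr13:115101965-115102214, minus strand: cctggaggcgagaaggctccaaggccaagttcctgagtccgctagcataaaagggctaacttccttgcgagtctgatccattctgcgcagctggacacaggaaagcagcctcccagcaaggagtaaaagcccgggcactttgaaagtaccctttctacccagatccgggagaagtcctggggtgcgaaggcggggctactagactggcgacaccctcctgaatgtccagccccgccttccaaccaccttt
The Lamb1 stretch is 191 bases long and the others 250. The Itgb1 stretch held 1 GC box and the Lamb1 stretch 2, and the Itga1 stretch held none. Their GC contents were 68.0%, 63.9% and 57.6%, against a median of 52.4% over all 32851 RefSeq promoters, taken as the 250 bases before the start. A GC box on either strand was present in 32.7% of those promoters and in 8 of the 23 integrin and laminin genes with an entry. The letters TATAAA or TTTATA were present in 12.4% of all promoters and in none of the 23. A match of letters is a description and does not show a bound site.

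Between the sexes, no integrin or laminin gene differed past the threshold. Of 31 genes with enough reads, 0 had an adjusted p below 0.05 in edgeR's quasi-likelihood test with Benjamini-Hochberg adjustment over all 16377 genes, of which 6 (0.0366%) passed. At an unadjusted p below 0.05 there were 3 of 31 (9.68%), against 367 (2.24%) of all genes tested. DESeq2 gave an adjusted p for 32 of 37 genes and called 0, limma-voom called 0 of 31, and each had 3 genes at an unadjusted p below 0.05. The adjusted p was 0.9995 for each of the 31 genes.

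Of the 31 genes tested, 22 (71.0%) had a higher fitted level in males, against 52.9% of all genes tested, with a median log2 fold change of 0.12 against 0.011. These are long genes, with a median length of 6091 bases against 3705 for all genes tested, and among the 4095 longest tested genes 54.95% had the higher level in males and the median fold change was 0.017. Without TMM scaling, by library size alone, 18 of 31 were higher in males, and the median was 0.087 against -0.021 for all genes tested. With the mean of foregut markers in the model, 18 of 31 were higher in males, and the median was 0.052 against -0.0035.

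**Figure D2:**
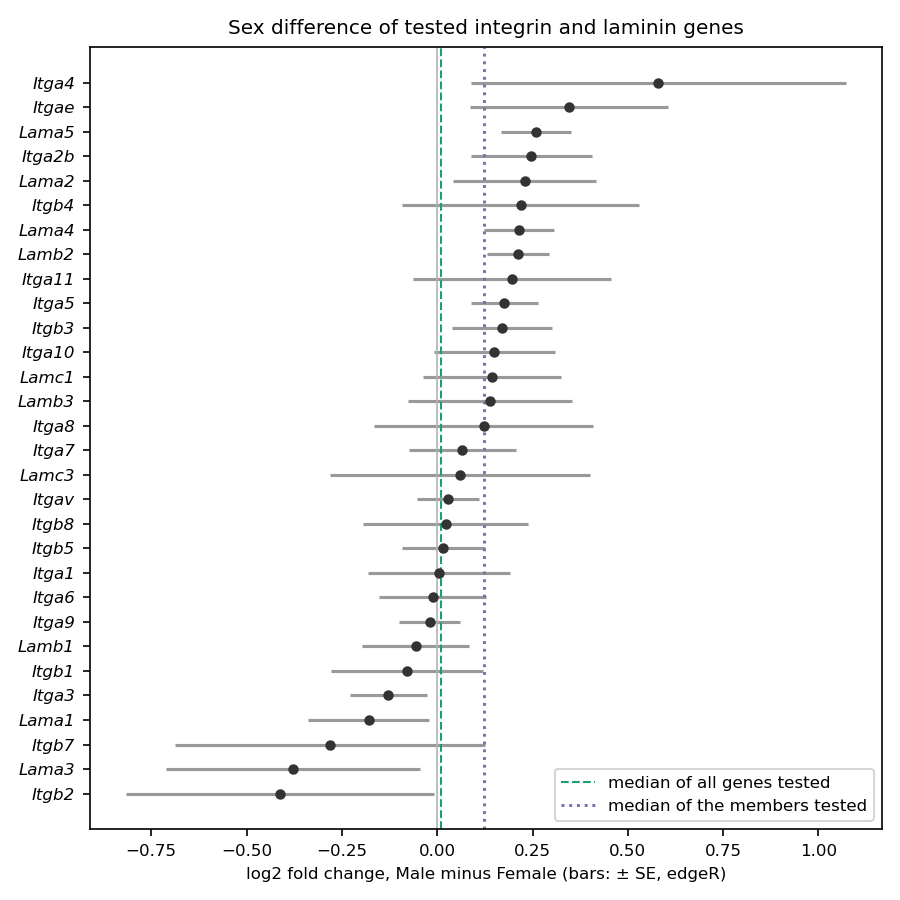
Fitted log2 fold change, Male minus Female, of 30 of the integrin and laminin genes tested, with bars of ± SE (edgeR, n = 4 libraries per sex); dashed and dotted lines mark the medians of all genes tested and of these genes. None passed an adjusted p of 0.05. The bars of Lama5, Lamb2 and Lama4 lie above 0, as do those of Itga5, Itga2b and other genes.

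The smallest p-values belonged to the laminin alpha chains Lama5 and Lama4 and to Lamb2, a beta chain that can join either of them. Lama5 (chromosome 2, 180176373 to 180225859, minus strand) had 67.3, 57.8, 55.5 and 63.7 CPM in Male replicates 1 to 4, and 52.9, 45.5, 53.0 and 52.8 CPM in Female replicates 1 to 4. Every male library lay above every female library, although the gap between 55.5 and 53.0 CPM was small. The log2 fold change was 0.26 ± 0.09 (SE, n = 4 per sex), and the unadjusted p in edgeR was 0.0199, which became an adjusted p of 0.9995.

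Lama4 (chromosome 10, 38965515 to 39110188, plus strand) had 142, 148, 143 and 138 CPM in Male replicates 1 to 4, and 106, 127, 124 and 136 CPM in Female replicates 1 to 4. Its sexes also did not overlap, the nearest libraries being Male replicate 4 and Female replicate 4. The log2 fold change was 0.21 ± 0.09, and the unadjusted p in edgeR was 0.0438, which became an adjusted p of 0.9995. Lama5 and Lama4 were the 2 of 31 genes whose sexes did not overlap, and 365 of all genes tested (2.23%) had this property.

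Lamb2 (chromosome 9, 108479736 to 108490530, plus strand) had 112, 106, 93.8 and 102 CPM in Male replicates 1 to 4, and 84.5, 87.6, 94.8 and 89.5 CPM in Female replicates 1 to 4. Only Male replicate 3 fell within the female range. The log2 fold change was 0.21 ± 0.08, and the unadjusted p in edgeR was 0.0281, which became an adjusted p of 0.9995. With library size alone in place of TMM, the unadjusted p was 0.101 for Lama5, 0.102 for Lamb2 and 0.138 for Lama4, each still higher in males.

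Lamc1 and Lamb1, which assemble with these chains, had fold changes smaller than their errors. Lamc1 had 187, 112, 187 and 163 CPM in Male replicates 1 to 4, and 124, 139, 141 and 184 CPM in Female replicates 1 to 4, with a log2 fold change of 0.14 ± 0.18. Male replicate 2 was the lowest of all 8 libraries, and Male replicates 1 and 3 were the highest. Lamb1 had 188, 130, 198 and 173 CPM in Male replicates 1 to 4, and 162, 181, 169 and 205 CPM in Female replicates 1 to 4, with a log2 fold change of -0.06 ± 0.14. Its sexes overlapped almost fully. Whether the difference of Lamb2 exceeded that of Lamb1 was not tested.

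The other laminin chains overlapped between the sexes. Lama1 had 11.8, 13.2, 9.37 and 10.97 CPM in Male replicates 1 to 4, and 14.6, 10.96, 15.4 and 10.7 CPM in Female replicates 1 to 4, with a log2 fold change of -0.18 ± 0.16. Lama3 had 0.612, 0.437, 0.309 and 0.334 CPM in Male replicates 1 to 4, and 0.347, 0.544, 0.760 and 0.604 CPM in Female replicates 1 to 4, with a log2 fold change of -0.38 ± 0.33 and an unadjusted p of 0.286 in edgeR. Lama3 was among the genes with the smallest p in the direction of lower male values, and its low reads leave a wide error. Lamb3 had 3.26, 4.43, 2.92 and 2.67 CPM in Male replicates 1 to 4, and 2.38, 2.72, 3.90 and 3.16 CPM in Female replicates 1 to 4. Male replicate 2 was the highest library for Lamb3. Lamc3 had 0.578, 0.466, 0.309 and 0.367 CPM in Male replicates 1 to 4, and 0.454, 0.322, 0.253 and 0.585 CPM in Female replicates 1 to 4.

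**Figure D3:**
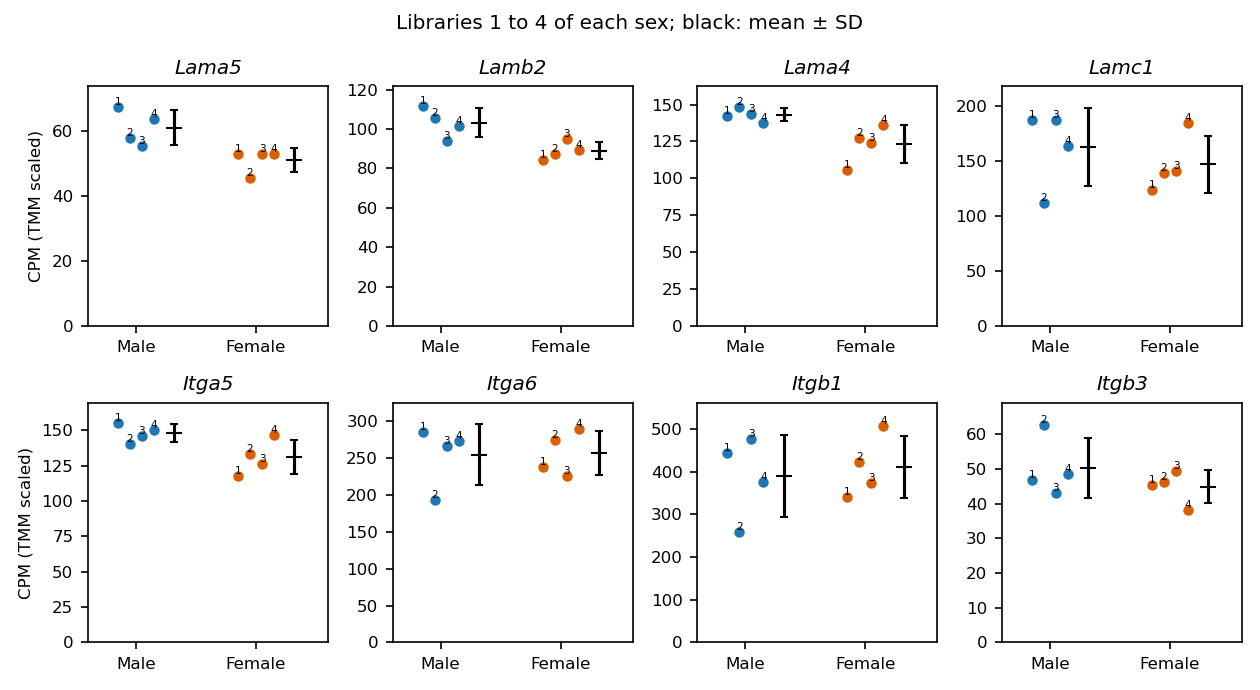
CPM (TMM scaled) of 4 laminin chains and 4 integrin subunits in Male libraries (left) and Female libraries (right), numbered by replicate, with the mean ± SD in black (n = 4). Lama5 and Lama4 do not overlap between the sexes, while Lamc1, Itga6, Itgb1 and Itgb3 overlap and have Male replicate 2 at an extreme.

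Among the integrins, Itga5 had the smallest p. Itga5 had 155, 140, 146 and 150 CPM in Male replicates 1 to 4, and 118, 133, 126 and 146 CPM in Female replicates 1 to 4. Female replicate 4 reached the male range and the other females did not, and the log2 fold change was 0.18 ± 0.09 with an unadjusted p of 0.0769 in edgeR. Itga6 had 286, 194, 266 and 273 CPM in Male replicates 1 to 4, and 238, 275, 226 and 290 CPM in Female replicates 1 to 4, with a log2 fold change of -0.01 ± 0.14. Itgb1 had 443, 259, 476 and 376 CPM in Male replicates 1 to 4, and 340, 422, 373 and 508 CPM in Female replicates 1 to 4, with a log2 fold change of -0.08 ± 0.20. In both genes the lowest library was male and the highest was female, and the sexes overlapped.

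The remaining named integrins also overlapped. Itga9 ranged from 40.9 to 45.5 CPM in males and from 40.5 to 47.8 CPM in females, the tightest spread of any tested member, with a log2 fold change of -0.02 ± 0.08. Itga3 had 24.3, 22.4, 22.1 and 22.0 CPM in Male replicates 1 to 4, and 25.3, 20.9, 27.1 and 26.2 CPM in Female replicates 1 to 4. It had the smallest p among genes with lower male values, with a log2 fold change of -0.13 ± 0.10 and an unadjusted p of 0.232 in edgeR. Itgb5 had 58.3, 46.4, 54.5 and 53.3 CPM in Male replicates 1 to 4, and 43.7, 52.7, 56.5 and 57.3 CPM in Female replicates 1 to 4, with a log2 fold change of 0.02 ± 0.11. Itgb3 had 46.8, 62.8, 43.2 and 48.5 CPM in Male replicates 1 to 4, and 45.4, 46.1, 49.5 and 38.2 CPM in Female replicates 1 to 4, with a log2 fold change of 0.17 ± 0.13. A further 14 tested genes had unadjusted p-values of 0.153 to 0.982 in edgeR.

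Over the libraries, a few known partners covaried past the threshold. Of 43 pairs of partners with both genes tested, 18 of integrin subunits and 25 of laminin chains, 34 had a positive correlation of log2 CPM. The median Pearson r was 0.29 for integrin pairs and 0.18 for laminin pairs. These medians depended on 1 library and on the scaling: they were 0.015 and 0.388 without Male replicate 2, and 0.608 and 0.512 by library size alone. In exact 2-sided permutation tests over all orders of the 8 libraries with Benjamini-Hochberg adjustment over the 43 pairs, 4 pairs passed by Pearson's r and 1 by Spearman's rho.

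The platelet receptor pair Itga2b and Itgb3 had the highest r. Itga2b had 21.7, 33.4, 21.9 and 24.02 CPM in Male replicates 1 to 4, and 20.4, 21.4, 25.2 and 18.4 CPM in Female replicates 1 to 4, and like Itgb3 it was highest in Male replicate 2 and lowest in Female replicate 4. Pearson's r was 0.962 (exact permutation p = 0.00062, adjusted p = 0.0261, n = 8) and Spearman's rho was 0.857 (exact permutation p = 0.0107, adjusted p = 0.0921). Without these 2 libraries, the farthest from the median, r was 0.745, without Male replicate 2 alone it was 0.878, and on deviations from the mean of each sex it was 0.955. The r of Itga2b with Itgb3 was above that of 98.9% of all tested genes with Itgb3.

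Itgb1 moved with the laminin and collagen receptor subunits Itga6 and Itga1. Its r with Itga6 was 0.897 (exact permutation p = 0.00399, adjusted p = 0.0429, n = 8), with a rho of 0.833 (exact permutation p = 0.0154, adjusted p = 0.110), and without Male replicate 2 and Female replicate 3 it was 0.765. Its r with Itga1 was 0.882 (exact permutation p = 0.00285, adjusted p = 0.0409, n = 8), with a rho of 0.976 (exact permutation p = 0.000397, adjusted p = 0.0171), and without Female replicates 1 and 4 it was 0.950. Such correlations with Itgb1 were common among all genes: 88.1% of genes had a lower r with Itgb1 than Itga6 and 86.4% a lower one than Itga1. In the other direction, 95.7% of genes had a lower r with Itga6 than Itgb1 did, and 95.8% a lower one with Itga1. The pair of Itgb1 with Itga5, the dimer ranked highest per length, had an r of 0.387 (exact permutation p = 0.345, adjusted p = 0.645, n = 8). It was 0.682 without Male replicate 2 and 0.736 on deviations from the mean of each sex.

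Among laminins, Lamb1 and Lamc1 moved together. Pearson's r was 0.890 (exact permutation p = 0.00122, adjusted p = 0.0261, n = 8) and rho was 0.857 (exact permutation p = 0.0107, adjusted p = 0.0921). Without Male replicate 2 and Female replicate 4 it was 0.853, and on deviations from the mean of each sex it was 0.977. Such values were again common, since 86.2% of genes had a lower r with Lamb1 than Lamc1 did, and 94.5% a lower one with Lamc1 than Lamb1 did. Lama5 and Lamb2 had an r of 0.840 with an adjusted p of 0.0604 in the exact permutation test, and on deviations from the mean of each sex it was 0.570. Lama4, the alpha chain of the trimers ranked highest, had an r of 0.395 with Lamc1, 0.039 with Lamb1 and 0.723 with Lamb2. Without Male replicate 2 these were 0.921, 0.765 and 0.665. None of these pairs passed, with all 8 libraries or without Male replicate 2.

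The 3 most negative pairs did not pass. Lama1 had an r of -0.689 with Lamc1 (exact permutation p = 0.0655, adjusted p = 0.235, n = 8) and of -0.619 with Lamb1 (exact permutation p = 0.0959, adjusted p = 0.317, n = 8). Itga6 had an r of -0.693 with Itgb4, its partner in epithelial hemidesmosomes (exact permutation p = 0.0602, adjusted p = 0.235, n = 8). They were followed by Itga4 with Itgb7 at -0.572 and Itgav with Itgb3 at -0.485.

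The libraries' slope on gene length moved with several of these values. Itgb1, Lamb1 and Lamc1 were low in Male replicate 2, which had the lowest slope, and high in Female replicate 4, which had the highest, and Itga2b and Itgb3 were the reverse. When each library's slope was removed from both genes, a step chosen after seeing the data, r was 0.897 for Itga2b with Itgb3, 0.473 for Itga6 with Itgb1, 0.230 for Itga1 with Itgb1 and 0.309 for Lamb1 with Lamc1. The median over integrin pairs became -0.0096 and that over laminin pairs 0.31. The counts of pairs that passed also depended on single libraries. Of integrin pairs, 0 passed without Male replicate 1, Male replicate 4, Female replicate 3 or Female replicate 4, 1 without Male replicate 2, Male replicate 3 or Female replicate 2, and 2 without Female replicate 1. Itga1 with Itgb1 was the pair that passed without Male replicate 2, Itga2b with Itgb3 the one without Male replicate 3 or Female replicate 2, and both passed without Female replicate 1. Itga6 with Itgb1 did not pass with any 1 library left out. Lamb1 with Lamc1 passed without Female replicate 2 and did not without any other library.

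**Figure D4:**
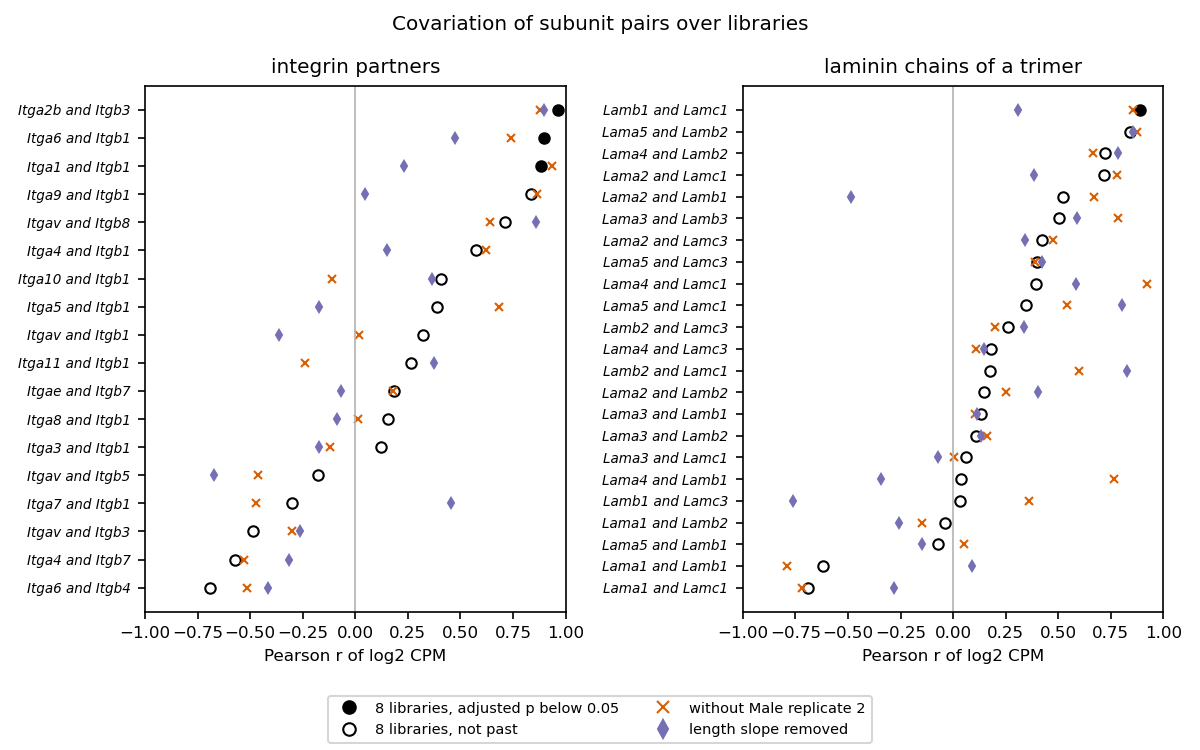
Pearson r of log2 CPM over 8 libraries for 18 integrin partner pairs (left) and 23 laminin chain pairs (right); filled circles passed an adjusted p of 0.05, crosses leave out Male replicate 2 and diamonds have the libraries' length slope removed. Itga2b with Itgb3 stays near 0.9 in all of these, while Itga6, Itga1 and Lamb1 with their partners fall below 0.5 once the slope is removed.

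The genes most like Itgb1 over the 8 libraries were Fbxo9 (r = 0.996), Crkl (r = 0.996) and Glis2 (r = 0.995) among all tested genes, and Lamb1 had rank 4 with an r of 0.995. All were measured in the same libraries, and Itgb1 had an r of -0.999 with the first principal component. These values describe a common profile of the libraries, whose cause was not tested.

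Itga4 varied more than any other tested member, 6.58-fold between its lowest and highest library, and was looked at after its values were seen. It had 8.43, 6.26, 20.5 and 16.7 CPM in Male replicates 1 to 4, and 3.12, 6.71, 9.83 and 14.9 CPM in Female replicates 1 to 4. Its log2 fold change was 0.58 ± 0.49, and the sexes overlapped widely. Upk3b, a marker of the epicardium and the proepicardium, which express Itga4 in the mouse, had 12.8, 12.4, 31.2 and 20.4 CPM in Male replicates 1 to 4, and 8.81, 11.9, 16.7 and 22.7 CPM in Female replicates 1 to 4. Male replicate 3, the highest for Itga4, was also the highest for 4 of the 6 epicardial markers (Wt1, Tcf21, Upk3b and Upk1b), whereas Tbx18 was highest in Male replicate 2 and Aldh1a2 in Female replicate 1. Female replicate 1, the lowest for Itga4, was the lowest for 2 of the 6 (Upk3b and Upk1b). The 6 epicardial markers summed to 66.3 to 132 CPM in males and 66.7 to 108 CPM in females, all 6 were above 1 CPM in every library, and their part in Itga4 was not tested. Of the exonic bases of Itga4, 8.04% overlap Cerkl on the other strand.

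**Figure D5:**
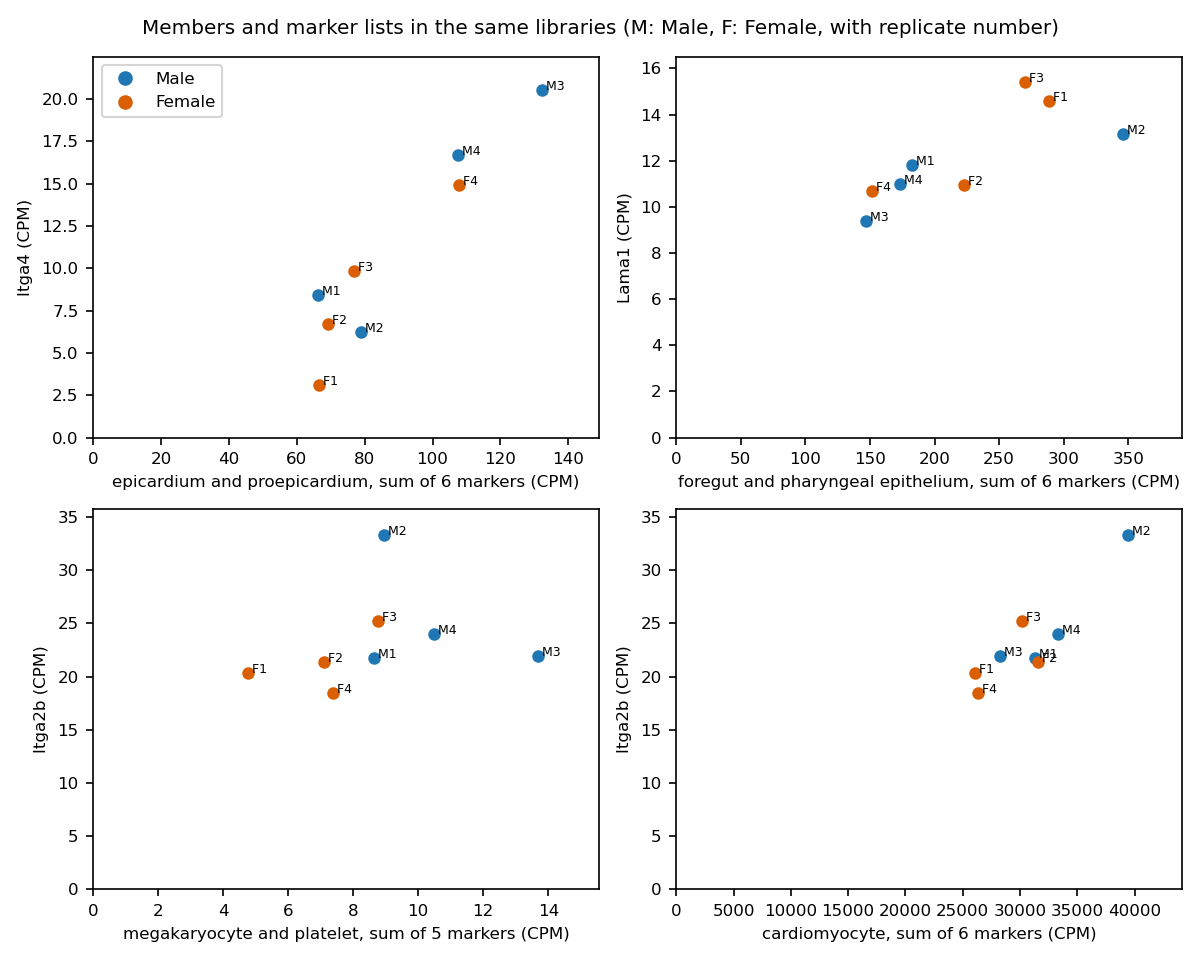
CPM of Itga4, Lama1 and Itga2b (vertical axes) against the summed CPM of a list of markers in the same library (horizontal axes), labelled M for Male and F for Female with the replicate number. Itga4 is highest in Male replicate 3, where the epicardial sum is highest at 132 CPM; Lama1 is highest in the 3 libraries with the highest foregut sums; and Itga2b is highest in Male replicate 2, where the cardiomyocyte sum is highest and the megakaryocyte sum is not.

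Lama1 and the foregut markers also shared their high libraries in part. Lama1 was highest in Female replicate 3 at 15.4 CPM, Female replicate 1 at 14.6 CPM and Male replicate 2 at 13.2 CPM, and Epcam was highest in the same 3 libraries, at 6.44, 18.3 and 12.5 CPM. Each of the 6 foregut and pharyngeal markers had these 3 libraries as its highest, although 0 of the 6 were highest in Female replicate 3. These 3 libraries also had the lowest slopes on gene length, at -0.105 in Male replicate 2, -0.038 in Female replicate 3 and -0.032 in Female replicate 1. Lama1 had an r of -0.668 with that slope, whose part in Lama1 was not tested. The 6 foregut and pharyngeal markers summed to 147 to 346 CPM in males and 151 to 288 CPM in females, most of it Krt8, with 3 of 6 above 1 CPM in every library and Shh at 0 in Male replicate 1. The 5 hepatic and yolk sac markers also summed highest in Female replicate 1, at 68.5 CPM, and Male replicate 2, at 26.6 CPM. Their sum in Female replicate 3, at 2.79 CPM, was below that in Male replicate 4, at 14.3 CPM. The part of the foregut and of the hepatic and yolk sac markers in Lama1 was not tested. Itga2b was highest in Male replicate 2, as was 1 of the 5 megakaryocyte and platelet markers, Gp1bb at 4.31 CPM, whereas Pf4 was highest in Male replicate 3 at 8.09 CPM and stood at 3.53 CPM in Male replicate 2. Of the 6 cardiomyocyte markers, 4 were also highest in Male replicate 2 (Myh6, Myh7, Tnnt2 and Nkx2-5), and Actc1 and Ryr2 were not. The 5 megakaryocyte and platelet markers summed to 8.64 to 13.7 CPM in males and 4.75 to 8.77 CPM in females.

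The molecules that integrins and laminins work with did not differ past the threshold either. All 24 genes on a list of cytoplasmic adaptors and activators were tested, 12 were higher in males, 0 passed, and the median log2 fold change was 0.003. The most abundant were the talin Tln1 at 209 CPM, which also had the smallest p of the list (unadjusted p = 0.0951 in edgeR), and the focal adhesion protein Zyx at 193 CPM. Of 12 extracellular ligands, 10 were tested, 6 of these were higher in males, 0 passed and the median was 0.05. Fibronectin, Fn1, stood at 652 CPM and Vcam1 at 93.1 CPM, and the smallest p was that of Ltbp1 (unadjusted p = 0.254 in edgeR).

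Of 14 basement membrane partners and other laminin receptors, all were tested, 8 were higher in males, 0 passed and the median was 0.03. Col18a1 at 439 CPM and the heparan sulfate proteoglycan perlecan, Hspg2, at 379 CPM were the most abundant. Hspg2 had the smallest p of the list, with 469, 503, 375 and 442 CPM in Male replicates 1 to 4, against 297, 274, 351 and 319 CPM in Female replicates 1 to 4. Its sexes did not overlap, the log2 fold change was 0.53 ± 0.12, and the unadjusted p in edgeR was 0.0017, which became an adjusted p of 0.9995. Over the alternatives the adjusted p of Hspg2 ranged from 0.0719 in DESeq2 to 0.99993. Perlecan binds laminin in the basement membrane.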

How the data were processed

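RNA-seq of 8 embryonic mouse heart libraries was analysed from the counts per gene that the authors deposited, which are whole numbers and not normalized. Per the labels' protocols, Trizol was used for extraction and an Illumina TruSeq RNA kit for the libraries. The submitters' processing notes name Trimmomatic 0.36, STAR 2.5.2b, Subread 1.5.2 with featureCounts, and build GRCm38 (mm10). The sources used here do not give how strand and multi-mapping reads were handled. The signal table that the authors deposited holds counts divided by 1 factor per library (tested with a relative tolerance of 1e-06) for 16460 genes, and was used as an alternative only. Symbols were found for 48970 of 49315 identifiers.

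Genes were tested, male minus female, by the 2-sided robust quasi-likelihood test of edgeR 4.0.16 (R 4.3.3), after filterByExpr at a minimum of 10 counts and TMM scaling, and p-values were adjusted by Benjamini-Hochberg over 16377 genes at a threshold of 0.05. A log2 CPM used a prior count of 1. Levels per length are reads per kilobase of the gene length in the deposited tables, scaled to the same sum in every library. A dimer or trimer was ranked by its least abundant subunit. All replicate pairs differed beyond sampling noise (chi-square per gene of 7.93 to 192). Alternatives were DESeq2 1.42.0, limma-voom and limma 3.58.1, RLE factors, library size alone, other filters, an adjusted p of 0.01, the replicate number as a block, the length slope or the foregut marker mean as a covariate, and leaving out each library in turn. The fit was tested on simulated counts. Correlations were computed in Python 3.11.15 with numpy 2.4.6.

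The genes, lists and tests were chosen with earlier results of these data known. The rule for values in every library took any gene past the threshold, the 3 highest per length of each class, the 2 with the smallest p in each direction, and genes whose highest library was over 3 times the median and over 5 CPM, which none was. Itga2b and Itga4 were added after their values were seen. Of the genes that this rule and the counts take in, 1 is not reported here by name or value.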

Additional observations from a re-analysis of the deposited data

Results flagged for a closer look

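In 62 groups of 4 libraries (31 tested genes in each sex), 3 had a library set apart from the other 3 of its sex by a gap beyond Dixon's 95% limit, with gaps of 0.856 to 0.972 of the group's range, and chance alone flags about 1 in 20. Itga3 was at 24.35 CPM in Male replicate 1, against 22.05 to 22.38 CPM in the other males. Itgb2 was at 0.3472 CPM in Female replicate 1, against 0.6081 to 0.6447 CPM in the other females. Lama5 was at 45.51 CPM in Female replicate 2, against 52.8 to 53.01 CPM in the other females, and without that library its log2 fold change was 0.21 with an unadjusted p of 0.0669 in edgeR. The causes were not tested.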

How the results depend on the processing

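The number of integrin and laminin genes past the threshold was 0 under every alternative run, and that over all genes was 5 to 9. At an unadjusted p below 0.05, the members numbered 0 by library size alone (294 of all genes) and 7 with the foregut marker mean as a covariate (3430 of all genes); leaving out 1 library gave 0 to 5. Over all genes, same-numbered male and female libraries did not deviate in the same direction (r of -0.41, -0.080, -0.316 and -0.019). This correlation cannot tell whether they shared a litter or handling, which the labels do not address. With the replicate block, 5 genes and 0 of the members passed. By library size alone, 5 integrin pairs and 2 laminin pairs covaried past the threshold, and 2 laminin pairs did on deviations from the mean of each sex. For the deviations, the permutation ran over all 8 libraries and not within each sex, so its p-values are approximate and can be too small. Leaving out 1 library gave 0 to 2 integrin pairs and 0 to 1 laminin pairs. The median r of integrin pairs was -0.0096 after removal of the length slope.

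Lama5, Lamb2, Lama4, Itga5, Itga3, Itgb3, Lama1 and Lama3 kept their direction throughout. Other directions did not hold: Itga6 was 0.024 with the length slope as a covariate, Itgb5 -0.0084 by library size alone, -0.0063 with no filter and -0.10 with the foregut markers, and Lamc1 -0.091 with the foregut markers (log2 fold changes). Leaving out 1 library gave -0.071 to 0.098 for Itga6, -0.050 to 0.028 for Itga9, -0.19 to 0.073 for Itgb1, -0.059 to 0.076 for Itgb5, -0.13 to 0.056 for Lamb1, -0.030 to 0.27 for Lamb3 and -0.11 to 0.31 for Lamc3. The cause was not tested. The 6 genes below the read filter had 10 to 71 reads each and were compared only with no filter, where 0 passed, and in DESeq2, which gave 5 of them no adjusted p.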
